A study of Homo sapiens with 6 samples.

Results

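This report describes 9 genes of epithelial cell adhesion and of the epithelial to mesenchymal transition (EMT), EPCAM, CD24, CDH1, CDH2, CLDN7, ESRP1, ZEB1, ZEB2 and SNAI2, in HEK-293 cells with stable overexpression of a circular RNA. The members are all probes that the array's annotation pairs with these symbols, which gave 14 of the 47315 probes on the array, for 9 of 20044 annotated genes. The genes were chosen by the measured differences between circANRIL and vector control arrays, so their values in the 2 groups are a description and carry no test.

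RNA was hybridized to 6 bead arrays (Illumina HumanHT-12 v4), 3 with RNA of circANRIL lines and 3 with RNA of vector control lines, all derived from HEK-293, a human embryonic kidney line with several neuronal features. The circANRIL lines carried the pBI-CMV2 vector with a circularizing segment of ANRIL, the long non-coding RNA of the chromosome 9p21 locus, and the control lines carried the same vector without it. The vector also expresses a green fluorescent protein, and both kinds of line had been co-transfected with a neomycin resistance plasmid and selected with G418. The methods describe several lines per construct, while the labels do not say whether the 3 arrays of a group came from separate lines or cultures. All p-values below therefore measure the spread between arrays only.

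Epithelial cells hold together through adherens junctions, built on E-cadherin (CDH1), and tight junctions, built on claudins such as CLDN7, while EPCAM is a surface glycoprotein that modulates both. During EMT the zinc finger repressors ZEB1, ZEB2 and SNAI2 (SLUG) bind E-boxes in the promoters of epithelial genes, and cells exchange E-cadherin for N-cadherin (CDH2) and lose the epithelial splicing factor ESRP1. CD24 is a small glycosylphosphatidylinositol-anchored surface protein of many epithelia and neuronal precursors.

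The E-box that the ZEB and SNAI repressors bind reads CAGGTG, or CACCTG on the other strand. Both spellings are 1 site and were searched together in 300-base windows, 250 bases before and 50 after each RefSeq transcript start (GRCh38.p14), of which 35116 were given and 20.6% held at least 1 site. The stretches below are examples from windows of CLDN7, ZEB1 and CD24 that held a site, shown so that the site can be seen in its context, with the E-box in capitals and each sequence written 5′ to 3′ on the strand of its gene. The first is the upstream part of a CLDN7 start at chr17:7262479-7262728 on the minus strand. The pair that follows comes from the upstream part of 1 ZEB1 start, at chr10:31318966-31318991 and chr10:31319119-31319148 on the plus strand, and the last from CD24 at chr6:106974271-106974289 on the minus strand.
CLDN7 upstream: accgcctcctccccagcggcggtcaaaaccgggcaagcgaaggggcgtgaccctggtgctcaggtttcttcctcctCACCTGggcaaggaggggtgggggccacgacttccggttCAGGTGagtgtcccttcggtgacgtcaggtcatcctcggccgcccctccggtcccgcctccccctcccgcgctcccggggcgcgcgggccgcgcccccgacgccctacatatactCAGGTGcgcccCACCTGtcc
ZEB1 site 1: ccccaccaCACCTGaggaaaactttt
ZEB1 site 2: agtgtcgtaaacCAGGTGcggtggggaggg
CD24 site 1: cCAGGTGactacttcccac

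The CLDN7 window held 5 E-boxes, 4 of them in the stretch shown, and 0.094% of all windows held as many. Counted from the transcript start, they began at -174, -135, -20 and -9, with the last 5 bases after it. The other CLDN7 start had none. Among 7 ZEB1 windows, 1 held 3 sites (0.635% of windows held as many) and 1 held a single site at -57. In CD24, 1 of 3 windows held 1 site, and neither the 2 CDH2 windows nor the ZEB2 window held any. Windows of EPCAM and CDH1 were not examined, and those of ESRP1 and SNAI2 are not shown. A match says only that these letters stand in the window.

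**Figure D1:**
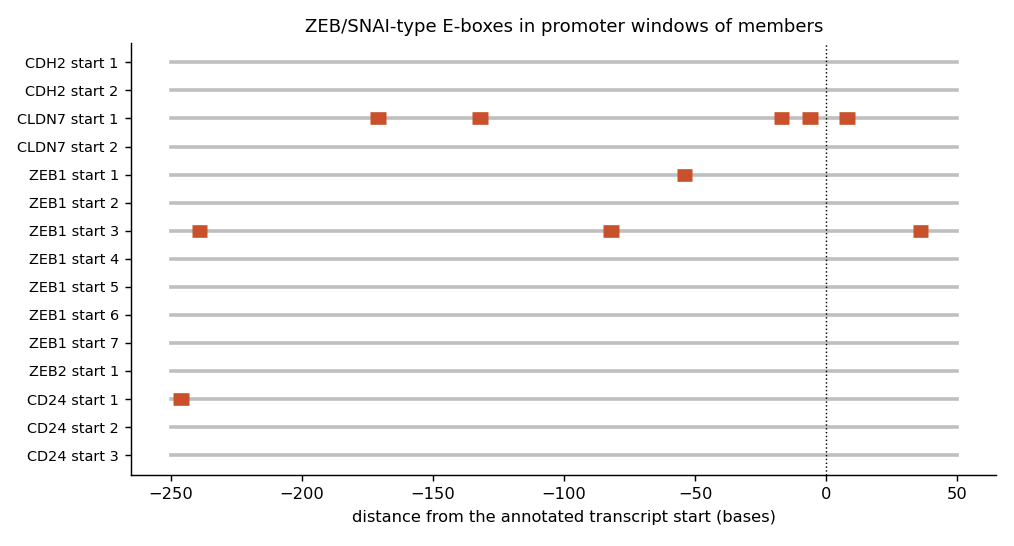
E-boxes in the promoter windows of CDH2, CLDN7, ZEB1, ZEB2 and CD24. The x axis gives the distance in bases from the annotated transcript start (dotted line), each grey line is a window of 300 bases and each square a CAGGTG or CACCTG site. The CLDN7 window with 5 sites stands beside 11 windows without any.

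Levels are background-corrected, quantile-normalized probe signals on the log2 scale, on which 1 unit is a 2-fold difference. A constant of 16, the offset, was added to each corrected signal before normalization. A probe counted as detected on an array when its deposited detection p-value was under 0.05, and the lowest detected level of an array lay between 4.60 and 4.69. A probe was kept when 3 or more of the 6 arrays detected it, which left 21191 probes. Among the members 12 of 14 probes were kept, for 8 of 9 genes, and 8 probes were detected on all 6 arrays. Only ESRP1 and the second CD24 probe were detected on none. Of the 12 kept probes, the values of the 3 circANRIL and 3 vector control arrays did not overlap for 8 (5 higher, 3 lower in circANRIL), against 35.7% of all kept probes (16.5% higher, 19.3% lower). Of these 8, CDH1 and CLDN7 were detected in 1 group only and passed the filter through it, so their separation was nearly set by the filter. Since the members were chosen by this contrast, the count is a description. Of all kept probes, 17.7% passed an adjusted p of 0.05 (limma), 9.27% higher and 8.44% lower in circANRIL.

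The surface protein EPCAM, which joins neighbouring epithelial cells and signals through its cleaved tail, was higher in circANRIL on each of its 3 probes. Its first probe read 8.38, 9.67 and 9.55 on arrays 1, 2 and 3 of circANRIL, against 4.95, 6.99 and 4.69 on arrays 1, 2 and 3 of vector control. No values overlapped, circANRIL array 1 was the lowest of its group, and vector control array 2 stood well above the other two. The group means were 9.20 ± 0.71 in circANRIL and 5.54 ± 1.26 in vector control (SD, n = 3 each), a difference of 3.66 (SE 0.448), or 12.6-fold. Without vector control array 2 the difference was 4.37, and without vector control array 3 it was 3.20. On the deposited background-subtracted scale the same probe had signals of 314.2, 679.7 and 691.0 in circANRIL, against 14.12, 117.3 and 10.35 in vector control. The vector control signals of arrays 1 and 3 thus lay close to background, while that of array 2 did not. Here as in all values from bulk RNA, fewer cells with a transcript and less of it per cell cannot be told apart.

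The other two EPCAM probes gave the same picture. The second read 7.44, 9.15 and 9.13 in circANRIL, against 4.83, 6.21 and 4.92 in vector control, 9.54-fold apart (3.25, SE 0.399). The third read 6.47, 8.12 and 8.19 in circANRIL, against 4.71, 5.64 and 4.34 in vector control, where 2 of 3 arrays detected it, and the groups were 6.49-fold apart (2.70, SE 0.385). On all 3 probes circANRIL array 1 was lowest and vector control array 2 highest of its group, and no values overlapped.

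CD24 was higher in circANRIL on the probe that detected it. This probe read 8.58, 9.05 and 9.04 in circANRIL, against 6.31, 7.26 and 5.95 in vector control. Again vector control array 2 was the highest of its group and circANRIL array 1 the lowest, without overlap. The means were 8.89 ± 0.27 in circANRIL and 6.51 ± 0.68 in vector control (SD, n = 3 each), 5.22-fold apart (2.38, SE 0.268). The second CD24 probe was detected on none of the 6 arrays, at 4.33, 4.39 and 4.36 in circANRIL and 4.26, 4.31 and 4.28 in vector control, and gives no fold change. The probes of 1 gene thus gave unlike readings.

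E-cadherin, the calcium-dependent adhesion molecule of epithelial adherens junctions, was detected in circANRIL only. CDH1 read 6.14, 6.36 and 5.87 in circANRIL, against 4.32, 4.49 and 4.30 in vector control, where no array detected it. Every circANRIL array was above every vector control array. The group means were 6.13 ± 0.25 in circANRIL and 4.37 ± 0.11 in vector control (SD, n = 3 each). The vector control level is only a bound. With the offset of 16, CDH1 was at least 2.80-fold higher in circANRIL, measured against the lowest detected level of each vector control array. With detection at a p of 0.01 the bound was 2.41-fold. A larger offset of 50 took the measured log2 difference from 1.75 to 0.93, and no bound was computed for it.

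N-cadherin, the cadherin of neural and mesenchymal cells, was well detected in both groups and did not stand apart. CDH2 read 10.06, 10.23 and 9.95 in circANRIL, against 10.01, 10.17 and 9.23 in vector control. The groups overlapped, with vector control array 3 below the other five arrays. The difference was 0.28 (SE 0.200), or 1.21-fold, and without vector control array 3 it was -0.01. CDH1 was therefore higher in circANRIL beside a CDH2 level that overlapped between the groups.

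The claudin ran the other way. CLDN7, a tight junction protein that also binds EPCAM at the lateral membrane, read 4.30, 4.25 and 4.26 in circANRIL, where no array detected it, against 5.46, 5.55 and 5.24 in vector control, where all 3 did. The groups did not overlap. The spread within each was small, but in circANRIL it is that of an undetected probe. The means were 4.27 ± 0.03 in circANRIL and 5.42 ± 0.16 in vector control (SD, n = 3 each). With the offset of 16, CLDN7 was at least 1.68-fold lower in circANRIL, or at least 1.35-fold with detection at a p of 0.01. An offset of 50 took its measured log2 difference from -1.15 to -0.53. Its deposited signals were -0.951, -3.18 and -3.30 in circANRIL and 26.6, 32.4 and 24.1 in vector control, so the gene was dim even where it was detected.

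ESRP1, the RNA-binding protein that sets the epithelial splice forms of several receptors and adhesion proteins, was detected on none of the 6 arrays. It read 4.41, 4.65 and 4.59 in circANRIL and 4.57, 4.33 and 4.53 in vector control. No fold change can be given for it, and these values do not show that the gene was off.

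**Figure D2:**
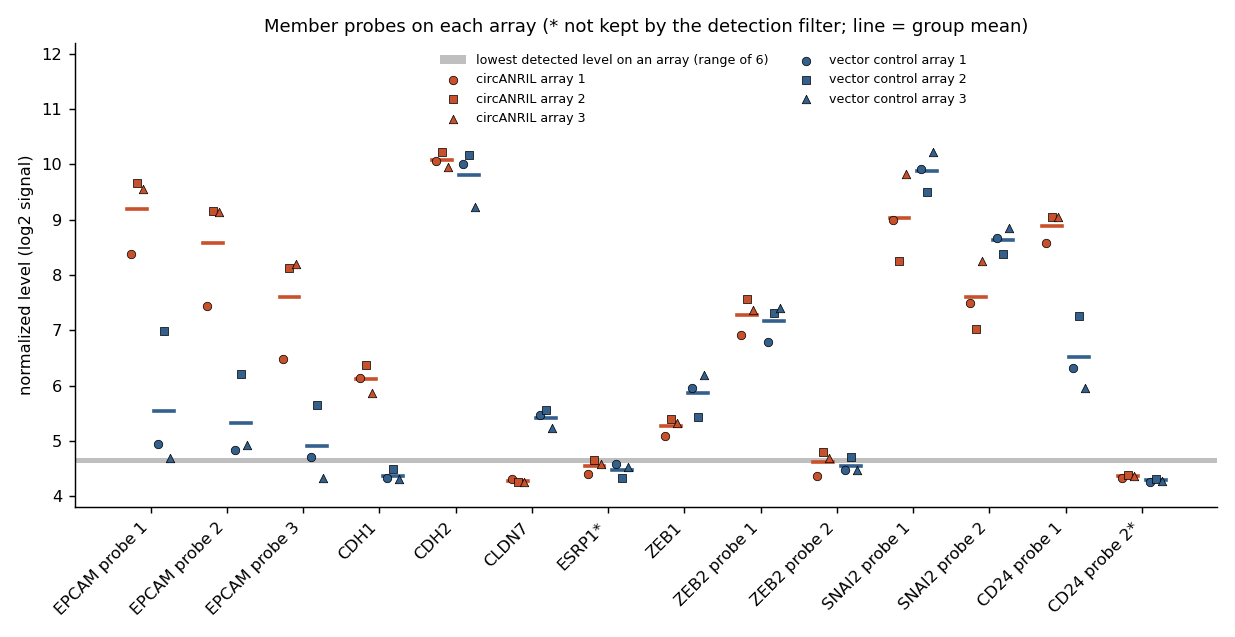
Normalized level (log2 signal, y axis) of the 14 member probes on circANRIL arrays (red, left) and vector control arrays (blue, right), 1 symbol per array number and a line at each group mean. The grey band is the lowest detected level of the arrays, 4.60 to 4.69. EPCAM, CDH1 and CD24 probe 1 lie higher in circANRIL, CLDN7, ZEB1 and SNAI2 lower, while CDH2 and ZEB2 overlap.

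Among the repressors, the ZEB1 groups were separated by a narrow gap. ZEB1 read 5.09, 5.40 and 5.33 in circANRIL, against 5.96, 5.42 and 6.19 in vector control. The groups did not overlap, but vector control array 2, at 5.42, was next to circANRIL array 2, at 5.40. The means were 5.27 ± 0.16 in circANRIL and 5.86 ± 0.39 in vector control (SD, n = 3 each), so ZEB1 was 1.50-fold lower in circANRIL (-0.58, SE 0.214). An antisense gene, ZEB1-AS1, has its own 2 probes, whose differences were 0.55 (adjusted p = 0.11) and 0.07 (adjusted p = 0.886, limma).

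ZEB2, the paralog of ZEB1, overlapped between the groups on both probes. Its first probe read 6.92, 7.56 and 7.37 in circANRIL, against 6.79, 7.30 and 7.40 in vector control. The difference was 0.12 (SE 0.222), smaller than the spread within either group, and it was -0.02 when the arrays were scaled to a common median instead of quantile-normalized. The second probe was detected on 2 circANRIL arrays and 1 vector control array and differed by 0.07 (SE 0.161).

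SNAI2, the SLUG repressor of CDH1 in EMT, was lower in circANRIL on both probes, though only the second separated the groups. The first read 8.99, 8.25 and 9.83 in circANRIL, against 9.92, 9.51 and 10.22 in vector control. CircANRIL array 3 overlapped the vector control arrays here. The second read 7.49, 7.02 and 8.26 in circANRIL, against 8.67, 8.38 and 8.85 in vector control, without overlap. The probes ordered the arrays alike, with array 3 highest and array 2 lowest in each group. The differences were -0.86 (SE 0.284), a 1.81-fold lower level in circANRIL, for the first probe and -1.04 (SE 0.250), 2.05-fold lower, for the second. Without circANRIL array 2 they were -0.47 and -0.76, and without circANRIL array 3 they were -1.26 and -1.37.

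The members thus split by direction across roles: EPCAM, CDH1 and CD24 were higher in circANRIL, CLDN7 was lower with ZEB1 and SNAI2, and CDH2 and ZEB2 overlapped. Vector control array 2 had the highest value of its group for 8 of the 12 kept member probes and the lowest for 3, both SNAI2 probes and ZEB1. Over all kept probes called higher in circANRIL, this array was the highest of its group for 45.7%, and over those called lower it was the lowest for 38.9%, against 30.6% and 32.0% of all kept probes. CircANRIL array 1 likewise stood nearer the other group, the lowest of its group for 49.3% of probes called higher and the highest for 52.7% of those called lower, against 32.2% and 34.7% of all kept probes. Whether these arrays differ in their cells or their processing was not tested.

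The sizes of the member differences depended on how the signals were scaled, and the directions of EPCAM, CDH1, CLDN7, ZEB1, SNAI2 and CD24 probe 1 did not under the 5 scalings tried. EPCAM probe 1 differed by 2.37 on the log2 scale in the authors' normalized values, which hold no intensity below 73.6, against 3.66 above. ZEB1 differed by -0.24 on that scale, against -0.58 above. The differences of CDH1 and CLDN7 also varied, but they involve a group that was not detected and are read only as bounds. Those bounds were computed with the offset of 16 only.

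**Figure D3:**
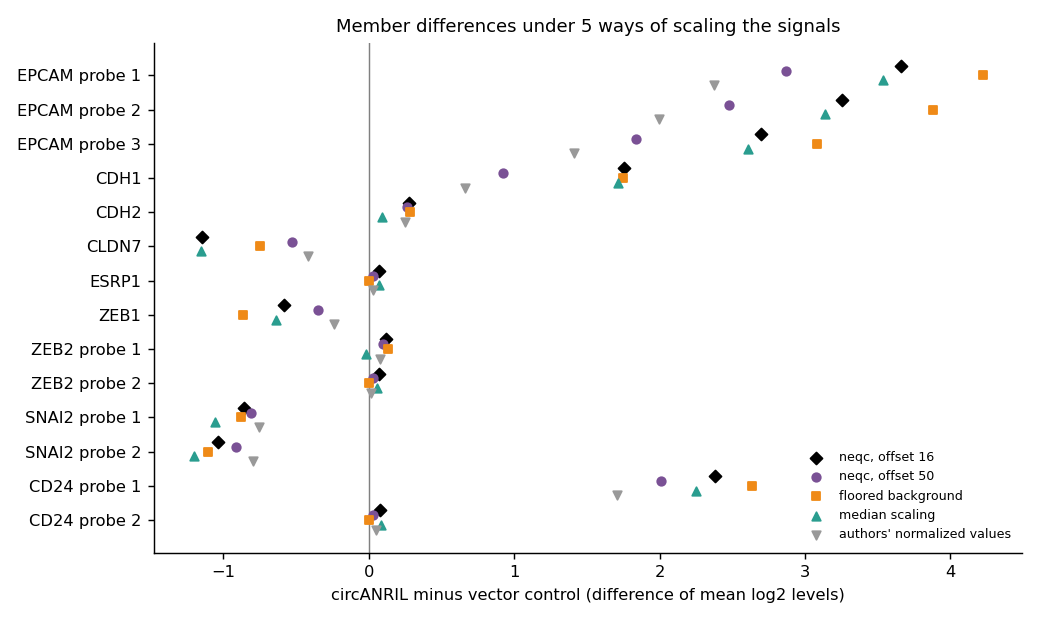
Difference of group means, circANRIL minus vector control (x axis, log2), for the 14 member probes under 5 ways of scaling the signals. EPCAM, CDH1 and CD24 probe 1 stay right of 0 and CLDN7, ZEB1 and SNAI2 left of 0 under each, while ZEB2 probe 1 falls on either side.

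The genes around the members were taken from 11 lists and read by their brightest kept probe. Of 12134 genes measured this way, 20.7% passed an adjusted p of 0.05 by limma, 11.4% higher and 9.26% lower in circANRIL, and the median difference was -0.02. All calls below are from that fit, and all differences are on the log2 scale. Each fold given as a minimum was computed with the offset of 16 only.

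Of 16 measured adherens junction and desmosome genes, 1 was higher and 4 were lower in circANRIL, with a median of -0.26. With the arrays scaled to a common median 0 were higher and 7 lower. The desmosomal cadherins DSC2 and DSC3 fell by 1.01 (SE 0.213, adjusted p = 0.00397) and 0.96 (SE 0.195, adjusted p = 0.00277), although a second probe did not pass for either, at -0.40 for DSC2 and -0.54 for DSC3. NECTIN3, a nectin that starts cell contacts, fell by 0.88 (adjusted p = 0.00196), and its second probe gave -0.93. NECTIN4 was detected on no circANRIL array and was at least 1.44-fold lower (adjusted p = 0.00794). Plakoglobin (JUP) was higher by 0.69 (adjusted p = 0.045), but its groups overlapped, its second probe gave -0.14, and the call was lost without circANRIL array 1 or 2 or vector control array 1 or 3. CTNNB1, the beta-catenin that binds the tail of E-cadherin, did not pass at -0.41 (adjusted p = 0.112), while 1 of its 3 other probes did at -0.57 (adjusted p = 0.0487). Of 4 measured cadherins outside the members, only CDH10 was called, at least 1.53-fold lower in circANRIL (adjusted p = 0.000733), and without vector control array 2 the list held 3 calls.

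Tight junction and polarity genes had 3 calls among 14 measured, all higher in circANRIL, with a median of 0.27. MARVELD3, a tight junction membrane protein of the occludin family, read 7.09, 7.35 and 7.42 in circANRIL, against 4.51, 5.24 and 4.29 in vector control. Vector control detected it on 1 array only, and the difference was 2.60 (SE 0.237, adjusted p = 1.32e-06), with 1.30 on a further probe and an at least 2.34-fold higher level on a probe that no vector control array detected. CLDN1 read 5.94, 6.03 and 5.44 in circANRIL and was detected on no vector control array, which makes it at least 2.24-fold higher (adjusted p = 5.37e-05), in the direction opposite to CLDN7. CLDN23 was higher by 0.65 (adjusted p = 0.0208), a call lost without circANRIL array 2 or 3 or vector control array 1 or 3. The scaffold TJP1 (ZO-1), at -0.04, did not pass (adjusted p = 0.897), and CLDN3, CLDN4 and CLDN6 were detected on no array.

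EPCAM's partners and cleaving proteases had 4 genes higher and 2 lower of 10 measured, with a median of -0.08. With the arrays scaled to a common median the split turned to 1 higher and 3 lower, and PSEN2, NCSTN and FHL2 lost their calls. CD9, a tetraspanin found in complexes with EPCAM, read 6.97, 6.98 and 6.78 in circANRIL, against 4.92, 6.06 and 5.31 in vector control. It was higher by 1.48 (SE 0.25, adjusted p = 0.000677), but its second probe, dim on every array, gave -0.03. Within gamma-secretase, the protease that releases the EPCAM tail, PSEN2 (0.66, adjusted p = 0.0302) and NCSTN (0.46, adjusted p = 0.0446) were higher and APH1A fell by 0.85 (adjusted p = 0.00166). FHL2, a LIM protein that binds this tail, was higher by 0.58 (adjusted p = 0.0108). The membrane protease PRSS8 was detected on no circANRIL array and was at least 1.25-fold lower (adjusted p = 0.0405). With each of the 6 arrays left out in turn, PRSS8 lost its call every time, PSEN2 kept it only without vector control array 3, NCSTN kept it only without vector control array 2, and FHL2 lost it without circANRIL array 2. The list held 2 calls without circANRIL array 2 and 3 without circANRIL array 1 or 3 or vector control array 1.

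The epithelial transcription and splicing factors moved in both directions, with 3 higher and 2 lower of 8 measured and a median of 0.24. With signals floored before normalization 0 were higher and 2 lower. OVOL2, a zinc finger repressor of ZEB1, read 6.42, 6.54 and 7.23 in circANRIL, against 5.09, 5.65 and 4.91 in vector control, and was higher by 1.52 (SE 0.248, adjusted p = 0.000511). FOXA1, a pioneer factor of glandular epithelia, was higher by 1.43 (adjusted p = 0.000463), and the RNA-binding protein RBM47 by 1.20 (adjusted p = 0.00294), with 0.95 and 1.29 on its other probes. KLF4, a zinc finger factor of epithelial differentiation and of pluripotency, read 7.33, 7.90 and 7.99 in circANRIL, against 9.72, 10.74 and 10.66 in vector control. It fell by 2.64 (SE 0.241, adjusted p = 1.32e-06), its second probe by 2.44, and KLF5 fell by 0.90 (adjusted p = 0.00355). GRHL2 and ESRP2, the paralog of ESRP1, were detected on no array.

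The simple epithelial keratin KRT8 was the only keratin measured of 10 listed. It read 8.21, 8.02 and 7.27 in circANRIL, against 5.17, 6.31 and 5.11 in vector control, with vector control array 2 again the highest of its group. KRT8 was higher by 2.30 (SE 0.302, adjusted p = 6.34e-05). The 2 probes of its partner KRT18 were detected on 1 and 2 arrays and were not kept.

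Among 12 other measured EMT transcription factors, 3 were higher and 1 lower, with a median of -0.10. FOXQ1 read 8.11, 7.50 and 6.29 in circANRIL, against 5.13, 5.94 and 5.83 in vector control, and was higher by 1.67 (SE 0.346, adjusted p = 0.00339). PRRX1 was higher by 1.40 (adjusted p = 0.000584), with a second, dim probe at 0.11. TWIST1, a basic helix-loop-helix inducer of EMT, was higher by 0.69 (adjusted p = 0.0179), a call lost without circANRIL array 1 or 2 or vector control array 1, and with the arrays scaled to a common median. TCF4, a helix-loop-helix factor that also binds E-boxes, fell by 0.70 (adjusted p = 0.0155), a call lost without circANRIL array 2 or 3, and the list held 2 calls without circANRIL array 2. SNAI1, the SNAIL paralog of SNAI2, was detected on no array. Of the 9 measured corepressors that ZEB and SNAI proteins recruit, CTBP1 alone passed and fell by 0.49 (adjusted p = 0.0418), while its other probes gave 0.11 (adjusted p = 0.702) and -0.65 (adjusted p = 0.0234). CTBP1 was called only without vector control array 1 among the 6 fits that left out 1 array.

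Mesenchymal effectors had 3 genes higher and 3 lower of 17 measured, with a median of 0.14. Vimentin (VIM), the mesenchymal intermediate filament, did not pass at 0.14 (adjusted p = 0.405), and FN1 was detected on no array by any of its 3 probes. The smooth muscle actin ACTA2 (0.73, adjusted p = 0.00493), the collagen cross-linking enzyme LOX (0.84, adjusted p = 0.0139) and the collagen COL6A1 (0.79, adjusted p = 0.00913) were higher. The collagen COL3A1 fell by 1.67 (adjusted p = 0.000676) and COL1A1 by 0.52 (adjusted p = 0.048), and the calcium-binding protein S100A4, detected on no circANRIL array, was at least 1.49-fold lower (adjusted p = 0.00979). Without circANRIL array 2 this list held 3 calls and COL6A1 lost its own, LOX lost its call without circANRIL array 2 or 3, and COL1A1 was called only without vector control array 1 among the 6 fits that left out 1 array.

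ESRP splicing substrates gave 1 call among 8 measured genes. CD44, a hyaluronan receptor whose splice forms ESRP1 sets, read 7.05, 8.09 and 8.47 in circANRIL, against 10.09, 10.69 and 10.74 in vector control, without overlap. It fell by 2.63 (SE 0.275, adjusted p = 5.83e-06), a second probe fell by 2.09, and the third, detected on no circANRIL array, was at least 1.49-fold lower. Whether the probes read single splice forms is not annotated, and FGFR2 was detected on no array. TGF-beta and BMP signalling genes gave 1 call among 16 measured, with a median of 0.08. The ligand BMP2 read 7.98, 8.24 and 8.57 in circANRIL, against 6.16, 5.55 and 5.90 in vector control, and was higher by 2.40 (SE 0.218, adjusted p = 1.29e-06).

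**Figure D4:**
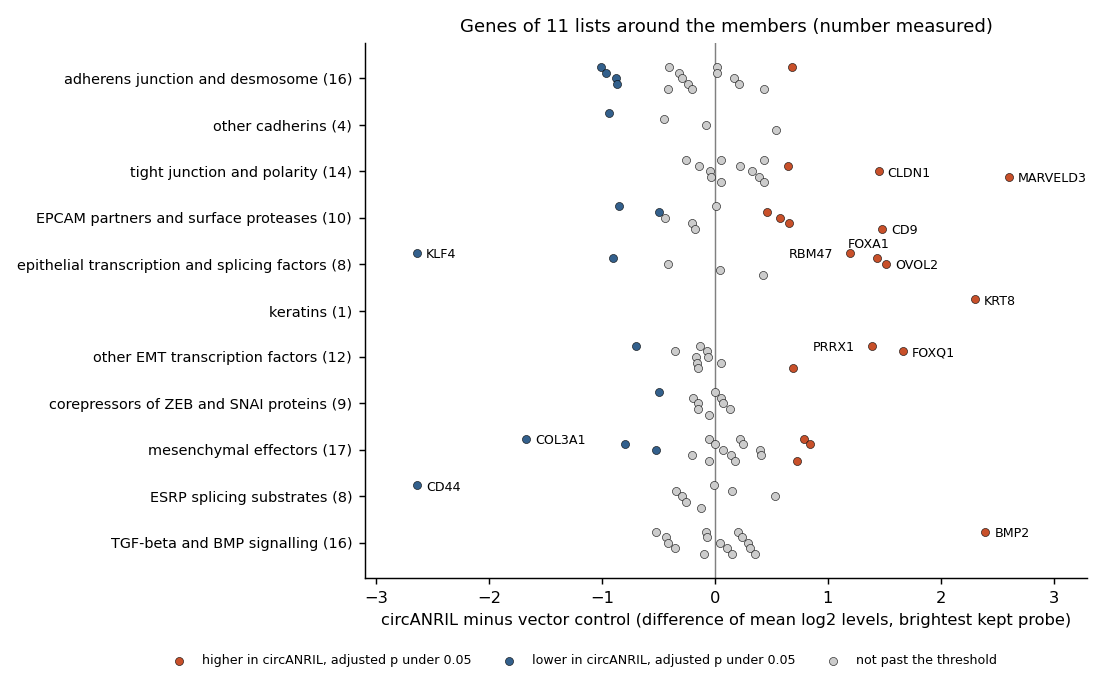
Difference of group means, circANRIL minus vector control (x axis, log2), of each measured gene in the 11 lists, 1 point per gene by its brightest kept probe, with the number measured in brackets. Red and blue points passed an adjusted p of 0.05 (limma), higher or lower in circANRIL. MARVELD3, BMP2 and KRT8 reach 2.60, 2.40 and 2.30, and KLF4 and CD44 reach -2.64 and -2.63.

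The genes whose levels followed EPCAM most closely over the 6 arrays were JAZF1, FMC1 and ICA1, with Pearson's r of 0.998, 0.998 and 0.996. Those that followed CDH1 were ATL3, FAH and RAB38, at 0.999, 0.999 and 0.997, and those that followed ZEB1 were RNF185, WDR76 and TXNL4A, at 0.986, 0.984 and 0.983. A gene can score high here largely from a group difference in the same direction, since the 6 arrays fall into 2 clusters. Pearson's r exceeded 0.95 for 317 genes with EPCAM, 382 with CDH1 and 42 with ZEB1.

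The arrays detected between 43.4% and 46.8% of probes, and the correlations of arrays were 0.98 to 0.99 within groups and 0.946 to 0.968 between them. The 2 probes of the ANRIL gene (CDKN2B-AS1) were detected on at most 1 array per group, so the arrays do not check the overexpression. Of 11 markers of the HEK-293 lineage, NEFL, NEFM, ENO2, KRT8 and VIM were detected on every array and PAX2 on none, and the summed linear level of all 11 was 7261 to 7678 in circANRIL, against 9071 to 12300 in vector control. NEFM, a neurofilament subunit, fell by 5.36 (adjusted p = 2.99e-09), while NEFL (1.08), INA (3.75) and ENO2 (1.60) were higher. Of 8 measured HEK-293 markers 4 were called higher and 1, NEFM, lower, with a median of 0.61. The lower sum in circANRIL came with NEFM, whose mean level was 7.11 there and 12.47 in vector control. Markers of other cells were counted where they had a probe. Detected on every array were 1 of 9 for fibroblasts (COL1A1), 1 of 6 for leukocytes (CD14) and 2 of 8 for glandular and intestinal epithelium (MUC1 and CDX2). None of 7 for endothelium and none of 5 for squamous epithelium were. The summed level of the fibroblast markers was 208 to 243.6 in circANRIL and 233.5 to 354.2 in vector control, and that of the leukocyte markers 150.4 to 159.6 in circANRIL and 163.9 to 177.9 in vector control. For glandular and intestinal epithelium it was 362 to 371.8 in circANRIL and 394.3 to 505.7 in vector control. The endothelial markers summed to 142.9 to 145.9 in circANRIL and 138.9 to 142.2 in vector control. The squamous markers summed to 99 to 104.1 in circANRIL and 97.17 to 106 in vector control. Since 6 of 7 endothelial and 4 of 5 squamous markers with a probe were detected on no array, these sums are mostly background. The sums of the other lists include undetected probes too. Of the glandular markers only CDX2 and MUC1 were measured, at -0.52 (adjusted p = 0.0595) and 0.33 (adjusted p = 0.333), and neither passed. CD79A, a B cell marker detected on no circANRIL array, was at least 1.31-fold lower (adjusted p = 0.0417) and was called only without vector control array 1 among the 6 fits that left out 1 array. PTPRC, PECAM1, KRT5, KRT14, COL1A2 and VIL1 were among the markers detected on no array. Of the fibroblast markers, COL3A1 was detected on 1 circANRIL and 3 vector control arrays, PDGFRA on 3 and 1, and LUM on 2 and 1. The part of any other cell in the member values was not tested.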

How the data were processed

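RNA from 3 circANRIL and 3 vector control arrays was analysed, grouped by the labels. The authors made the deposited intensity values in GenomeStudio (version 2011.1), with background subtracted but no normalization between arrays, since 11666 to 12397 signals per array are negative. The deposited detection p-values come from negative control beads. A second deposited table holds the authors' quantile-normalized intensity values, all at or above 73.6, and was used as an alternative. Signals were corrected by normexp with an offset of 16, using the detection p-values, quantile-normalized and set on the log2 scale (limma 3.58.1, R 4.3.3, nec). A probe was kept when 3 or more arrays detected it, at a detection p-value under 0.05. Groups were compared with lmFit and eBayes with an intensity trend, two-sided, with Benjamini-Hochberg adjustment over 21191 probes. An exact permutation test of 3 arrays against 3 cannot go below 0.1. The script was tested on simulated data.

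Of the array's probes, 30110 have 1 gene symbol, 30071 of them matched to RefSeq, and 4950 kept probes have none. A gene is given by its brightest kept probe, and beside it where its other probes differ. Where a group was detected on no array, the fold change is a bound, set by the dimmest detected probe of every array. Bounds were computed with the offset of 16 only, from the mean of the detected group without its error. The members and lists were chosen with earlier results of these data known. Named are all members, up to 4 genes per direction of each list with the smallest adjusted p, and 16 partners of the members, of which 1 is not reported here. Promoter sequences are from RefSeq, GRCh38.p14. The number of arrays limits the precision of all values.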

Additional observations from a re-analysis of the deposited data

How the results depend on the processing

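Directions of the 8 kept member probes whose groups did not overlap held under every scaling and without each array in turn. Leaving out 1 array could hardly turn them, since every array of 1 group lay above every array of the other. Of the overlapping kept probes, SNAI2 probe 1 stayed below 0. CDH2 turned to -0.01 without vector control array 3. ZEB2 probe 1 turned to -0.02 by median scaling, and both ZEB2 probes to -0.02 without circANRIL array 2. The remaining alternatives could not change a direction, since they left the member differences as they were or gave no member value. In the authors' normalized values the differences were 2.37, 2.00 and 1.41 for EPCAM, -0.24 for ZEB1 and 1.71 for CD24 probe 1. Those of CDH1, at 0.66, and CLDN7, at -0.42, involve an undetected group. CD24 probe 2, detected on no array, gave 0.050. This value and those of the same probe below are background and give no fold change. An offset of 50 gave 1.84 for EPCAM probe 3, 0.93 for CDH1, -0.53 for CLDN7 and 0.029 for CD24 probe 2, and signals floored at 16 gave -0.75 for CLDN7 and 0.00 for CD24 probe 2. The bounds became 2.41-fold for CDH1 and 1.35-fold for CLDN7 when the lowest detected level was taken at a detection p of 0.01. Probes called numbered 3753 (1965 higher, 1788 lower), 1529 with floored signals, 484 by the methods' t-test after Benjamini-Hochberg adjustment (5388 at an unadjusted p under 0.05), and 2138 to 3322 without 1 array, lowest without circANRIL array 2. Scaling to a common median, which moved the median gene by -0.12, gave 4392 (1418 higher, 2974 lower). Same-numbered arrays did not deviate together (correlations 0.00261, 0.0819 and -0.126), and the replicate block gave 3531 probes and 0 corepressors.

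Calls in the adherens junction list were 5, against 1 floored, 0 by t-test and 8 by the smallest p over probes. EPCAM partners had 6, against 2 floored, 0 by t-test and 2 to 4 without 1 array. Epithelial factors had 5, against 2 floored and 1 by t-test, and keratins 1, against 0 in both. Mesenchymal effectors had 6, against 3 with detection at 0.01 on every array, 3 floored, 0 by t-test and 3 to 6 without 1 array. That filter left COL1A1, COL3A1 and S100A4 unmeasured rather than not called. Other EMT factors had 4, against 2 floored, 0 by t-test and 2 to 4 without 1 array. Corepressors had 1, against 2 by median scaling and by the smallest p, 0 by t-test and without a filter, and 0 to 1 without 1 array. Tight junction genes had 3, against 0 with detection at 0.01 on every array, 1 by t-test and 2 to 3 without 1 array. That filter left CLDN1, CLDN23 and MARVELD3 unmeasured. Other cadherins had 1, against 0 with detection at 0.01 on every array, where CDH10 was not measured, and 1 to 3 without 1 array. ESRP substrates had 1, against 0 by t-test, and TGF-beta and BMP genes 1, against 2 floored, by t-test and by the smallest p. TJP1 ran from -0.13 to 0.030 without 1 array, above 0 without circANRIL array 3 or vector control array 3, VIM turned to -0.0215 by median scaling, and CTNNB1 passed by median scaling at -0.60. Of 39 called genes named outside the members, 26 kept their call without each array in turn and 5 under every alternative that gave them a value. Of these 5, CDH10 and MARVELD3 had no value with detection at 0.01 on every array. The causes were not tested.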
